A study of Rattus norvegicus with 8 samples.

Results

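Heat shock proteins and their DNAJ co-chaperones were followed in the livers of male Sprague-Dawley rats that drank hydrogen water or sterilized distilled water for 4 weeks. The members were all genes on the array whose symbol starts with Hspa, Hspb, Hspd, Hspe, Hsph, Hsp90 or Dnaj, together with the heat shock factors Hsf1 and Hsf2. Hspa5, Hsp90b1 and Dnajb9, which belong to the unfolded protein response, were left out. The rule gave 63 of the 14217 genes with a single symbol, and each was represented by the probe set with the highest mean deposited value over the 8 arrays. The probe set is a group of short probes directed at a transcript. Hydrogen water was drinking water with 0.7 mM dissolved hydrogen, and 4 arrays of that group and 4 control arrays were analysed. The rats of both groups were 8 weeks old, ate the same commercial diet and were anesthetized with diethyl ether before the liver was taken. The study kept 8 animals per group, and the labels do not say which animal an array stands for or whether RNA was pooled, so p-values measure only the spread between these arrays.

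Molecular chaperones bind unfolded or newly made proteins and keep them from aggregating until they fold. HSP70 proteins do this in a cycle of ATP hydrolysis: DNAJ proteins deliver the client and trigger hydrolysis through their J domain, and exchange factors such as the HSP110 proteins release the nucleotide. HSP90 then takes over a narrower set of clients, among them steroid receptors and kinases. The chaperonin HSP60, encoded by Hspd1, folds mitochondrial proteins in a barrel closed by its partner HSP10, encoded by Hspe1, and small heat shock proteins hold aggregating proteins without ATP. The factor HSF1 switches on the inducible members through heat shock elements in their promoters, and HSF2 binds the same elements. In the liver these proteins are known for their response to heat, oxidants, toxins and feeding time.

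Signals are given as log2 of the quantile-normalized array signal plus 2.05, and changes as hydrogen water minus control on that scale. The 50 members whose mean reached 4.42, the median of all probe sets, were tested, and 13 were not. Dnajc17, at 4.54, was the lowest member tested, and Dnajc27, at 3.77, the highest that was not. The 13 were Hspa1l, Hspa2, Hspa12a, Hspa12b, Hspb2, Hspb3, Hspb7, Hspb9, Dnajb3, Dnajb7, Dnajb13, Dnajc6 and Dnajc27. Several of them are known from testis, muscle or brain, and none had a deposited signal above 30.6 on any array. Without detection calls such signals cannot be set apart from background. Hspa8, Hspa1b and Hsp90aa1 were not analysed here, because 6 probe sets for genes of these families carry several symbols and were not named. Signals of different probe sets are not compared with each other.

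None of the 50 tested members passed an adjusted p of 0.05 in limma, where 128 of all 15521 tested probe sets, or 0.825%, did. An unadjusted p under 0.05 was reached by 7 members, 14%, beside 12.5% of all tested probe sets. The 7 were Hsf2, Hsf1, Dnajc18, Dnaja3 and Dnajc8, with higher means in hydrogen water, and Dnajc12 and Hspa4l, with lower means. After normalization the arrays of the groups did not overlap at 3 members, 6%, beside 7.48% of all. The members' median change was −0.03, beside −0.0011 over all tested probe sets, with 20 members above 0 and 30 below. In liver RNA, fewer cells of a type and less RNA per cell cannot be told apart.

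**Figure D1:**
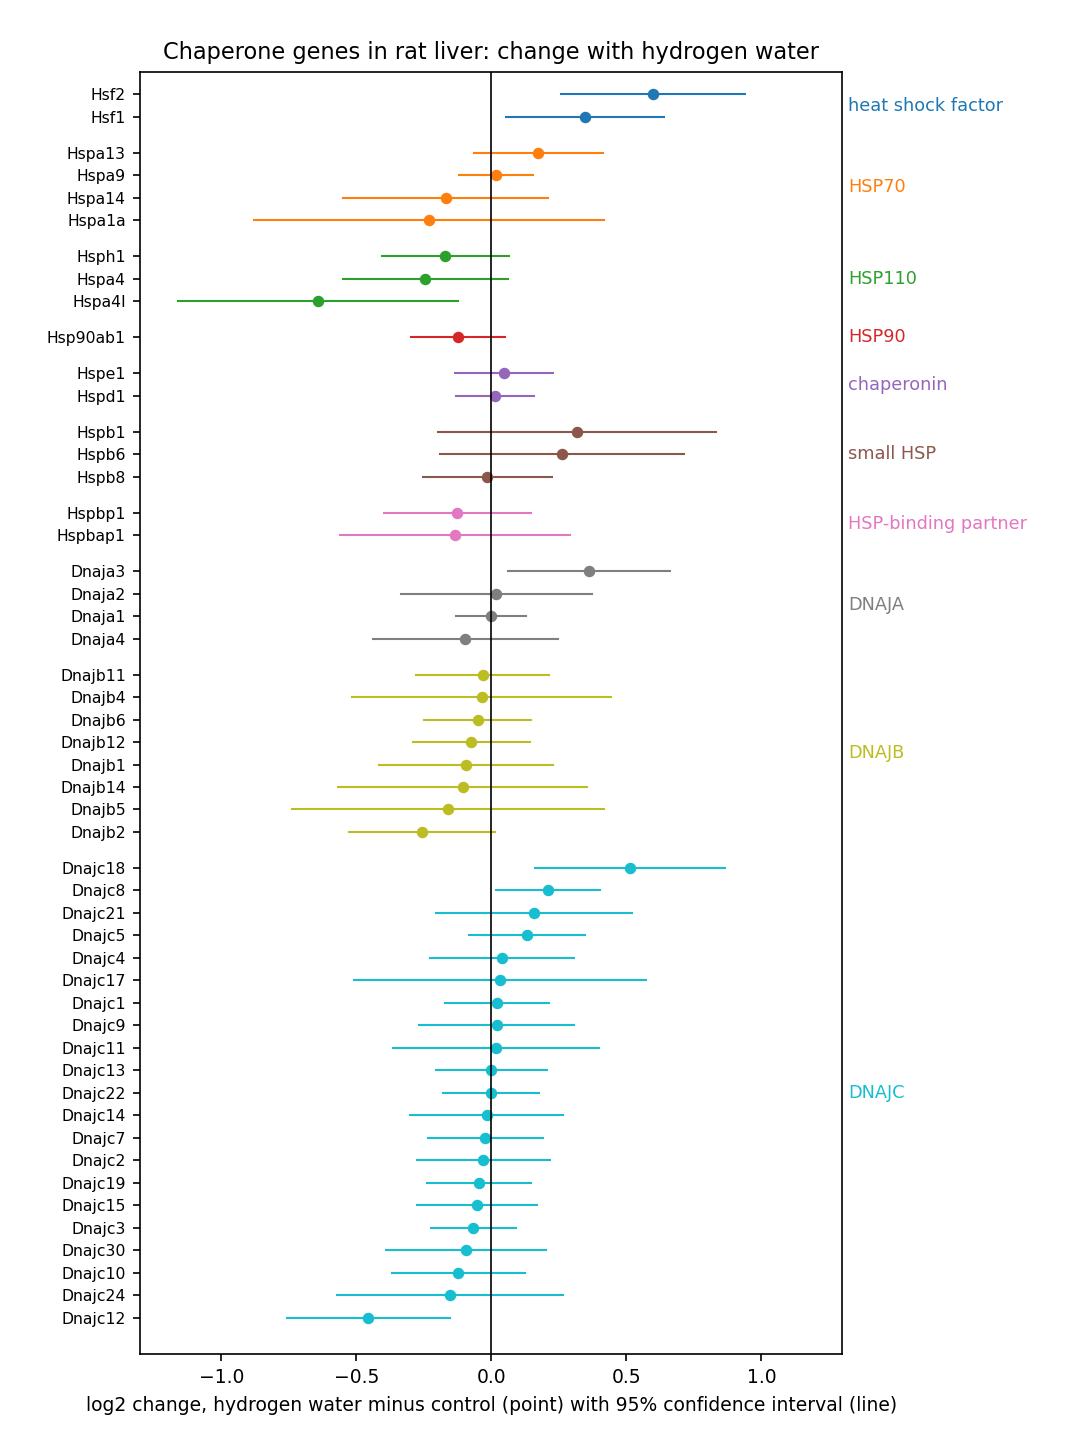
Change of each of the 50 tested members (point) with its 95% confidence interval (line) on the log2 scale, hydrogen water minus control, by family. The points run from −0.64 (Hspa4l) to 0.60 (Hsf2), and none passed an adjusted p of 0.05.

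After quantile normalization, which hides any shift common to all transcripts, the confidence intervals limit how far these genes differed relative to other transcripts. Without normalization 46 members were below 0, with a median of −0.37 beside −0.33 over all tested probe sets, and some changes lay outside these intervals. The 95% interval from limma lay within a 1.25-fold difference in either direction for 20 of the 50 members, 40.0%, against 18.8% of all tested probe sets. It lay within 1.5-fold for 40 members, 80.0%, against 61.7%, and within 2-fold for 49. The exception was Hspa4l. The members varied less between arrays of a group than probe sets in general, with a median within-group SD of 0.16 against 0.22. Among probe sets at or above the members' median signal of 7.76, the members' median SD was 0.13 and that of all was 0.14.

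**Figure D2:**
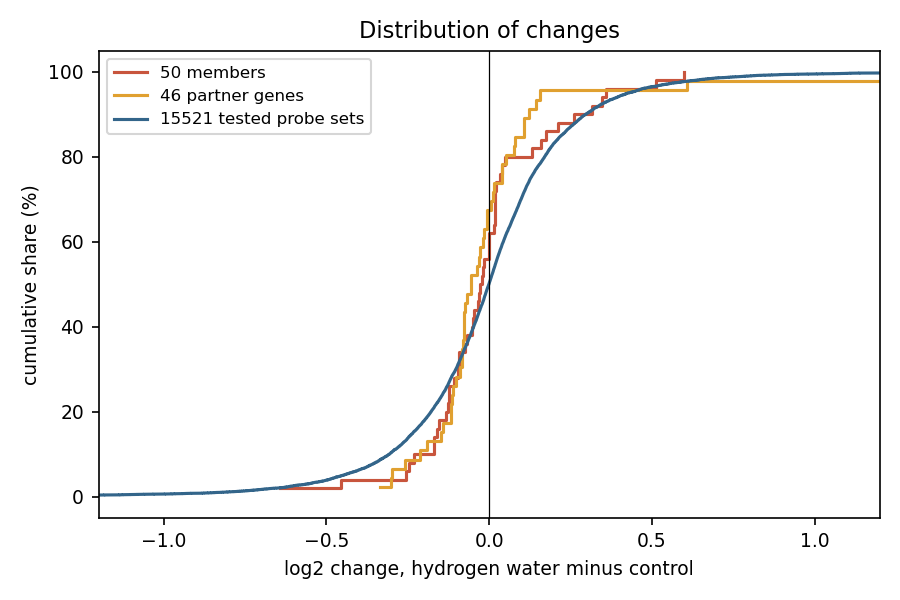
Cumulative share of genes or probe sets by log2 change, hydrogen water minus control, for the 50 members, 46 further chaperone partner genes and all 15521 tested probe sets. The curves of members and partners are steeper around 0 than that of all probe sets, and the partner Fkbp5, at 2.73, lies outside the range shown.

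Of the heat shock factors, Hsf2 had the smallest p-value of the 50 members. It had a log2 signal of 8.81, 8.72, 8.58 and 8.68 in the hydrogen water arrays, against 8.38, 7.60, 8.28 and 8.13 in the control arrays. After normalization every hydrogen water array lay above every control array, and control array 2 was the lowest. In the deposited values control array 1, at 421, lay above every hydrogen water array (312 to 406). The means were 8.70 ± 0.10 in hydrogen water and 8.10 ± 0.35 in controls (SD, n = 4 each). The difference of 0.60 ± 0.15 (SE) corresponds to 1.51-fold, with a 95% interval of 1.20 to 1.92, and did not pass (limma adjusted p = 0.107). Without control array 2 it was 0.43, with an adjusted p of 0.143.

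A further 2 probe sets of Hsf2 were tested, and the remaining one lay below the filter. One had 6.50, 6.51, 6.69 and 6.70 in hydrogen water, against 6.19, 5.79, 5.97 and 6.23 in controls. The groups again did not overlap after normalization. In the deposited values control array 1, at 92.3, lay within the hydrogen water range of 67.1 to 100. The difference of 0.56 ± 0.13 (SE) had the lowest adjusted p of any probe set of a member, 0.0863 in limma. The other had 6.94, 7.03, 7.04 and 7.28 in hydrogen water, against 7.01, 6.67, 6.74 and 6.77 in controls. Here control array 1 overlapped the hydrogen water arrays, and the difference was 0.27 ± 0.12 (SE; limma adjusted p = 0.387). Hsf1, the main activator of the heat shock response, had 6.24, 6.20, 6.18 and 6.11 in hydrogen water and 5.79, 6.11, 5.68 and 5.75 in controls. Control array 2 lay just above hydrogen water array 4, and the other 3 control arrays lay below all hydrogen water arrays. The difference was 0.35 ± 0.13 (SE), or 1.27-fold with an interval of 1.04 to 1.56, and did not pass (limma adjusted p = 0.302). Without normalization between arrays, where the median of all tested probe sets was −0.33, Hsf2 differed by 0.26 and Hsf1 by 0.0031.

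**Figure D3:**
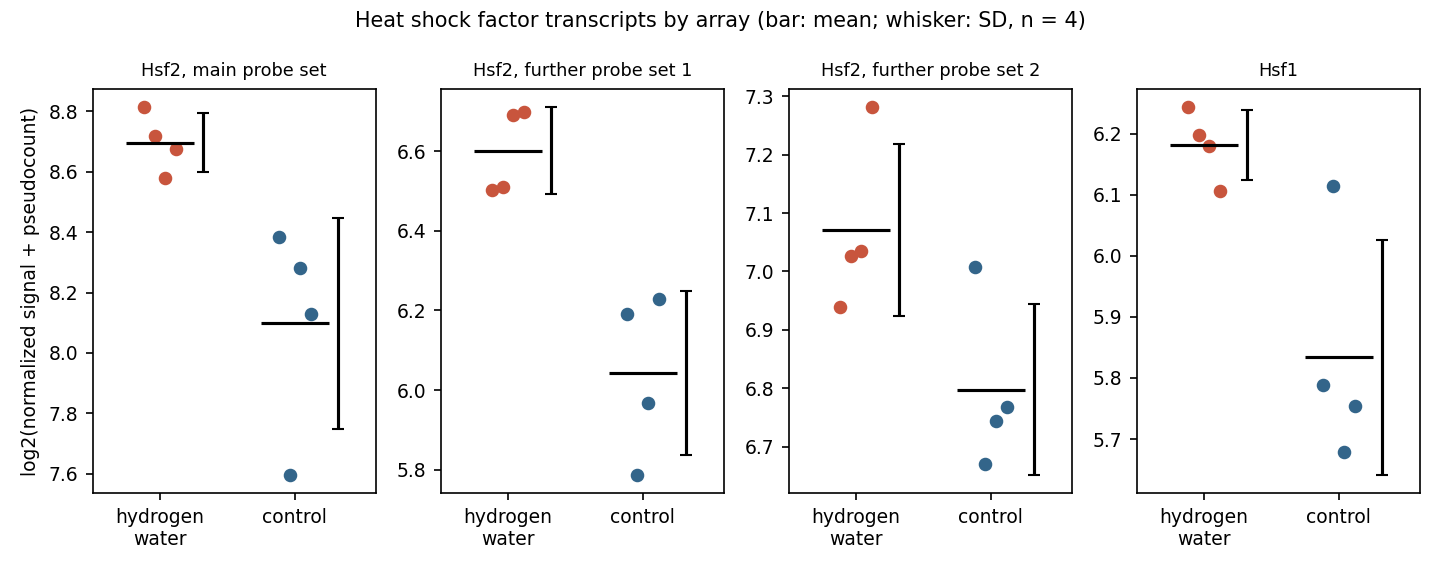
Log2 signal of Hsf2 (the probe set used and both further ones tested) and Hsf1 by array, hydrogen water left and control right, with the mean and SD of each group (n = 4); each panel has its own axis. On these normalized signals the groups separate at the first pair of Hsf2 panels and overlap at the third and at Hsf1. None of the 4 probe sets passed an adjusted p of 0.05.

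The heat shock element to which these factors bind is built of GAA units in alternating orientation. A pair of units, GAA and TTC in either order with any 2 bases between them, was searched on both strands in the RefSeq promoters of the rat assembly GRCr8, each from 250 bases before to 50 bases after the gene start. Each pair reads the same on both strands, and matches may overlap. Of the 63 members, 51 were matched to a promoter, all but Hsf1, Hspa12a, Hspb2, Dnaja2, Dnajb4, Dnajc2, Dnajc8, Dnajc11, Dnajc12, Dnajc15, Dnajc22 and Dnajc24. A pair was held by 14 of the 51, 27.5%, and by 15.9% of all 33469 promoters in the table. A run of 3 units, GAA, TTC and GAA or TTC, GAA and TTC with any 2 bases between neighbours, was found in 4 members, 7.84%, and in 0.798% of all promoters. The 4 were Hspd1, Hspe1, Hsph1 and Dnaja1. Hspd1 and Hspe1 hold the same element, read on opposite strands, and it was counted at each gene.

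Promoters of 3 of the 4 members with 3 units, and of Dnajb1 and Hspb1, textbook heat shock genes with pairs only, are shown because they carry the letters that HSF1 and HSF2 are known to recognise. They are read 5′ to 3′ on the gene's strand of GRCr8, and capitals mark the matched units.
Hspe1, chr9:64084077-64084376, plus strand: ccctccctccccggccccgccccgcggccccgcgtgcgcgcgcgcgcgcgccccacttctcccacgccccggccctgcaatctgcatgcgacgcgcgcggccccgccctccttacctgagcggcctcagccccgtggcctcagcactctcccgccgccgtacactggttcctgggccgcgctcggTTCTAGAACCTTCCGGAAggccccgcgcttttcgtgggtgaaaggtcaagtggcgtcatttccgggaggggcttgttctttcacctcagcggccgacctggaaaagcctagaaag
Hsph1, chr12:10427118-10427417, plus strand: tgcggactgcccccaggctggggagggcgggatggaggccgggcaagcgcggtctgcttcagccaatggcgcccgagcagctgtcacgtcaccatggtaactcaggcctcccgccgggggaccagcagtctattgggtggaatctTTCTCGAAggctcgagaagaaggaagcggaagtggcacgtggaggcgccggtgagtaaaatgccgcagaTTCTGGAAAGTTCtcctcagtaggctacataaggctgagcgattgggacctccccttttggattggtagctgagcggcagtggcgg
Dnaja1, chr5:60638154-60638453, plus strand: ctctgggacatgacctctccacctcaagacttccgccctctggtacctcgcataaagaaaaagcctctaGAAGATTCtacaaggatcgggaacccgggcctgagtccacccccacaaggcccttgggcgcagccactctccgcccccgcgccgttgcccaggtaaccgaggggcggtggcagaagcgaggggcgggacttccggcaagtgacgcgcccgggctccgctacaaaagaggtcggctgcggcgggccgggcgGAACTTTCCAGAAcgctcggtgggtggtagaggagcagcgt
Dnajb1, chr19:41431092-41431391, minus strand: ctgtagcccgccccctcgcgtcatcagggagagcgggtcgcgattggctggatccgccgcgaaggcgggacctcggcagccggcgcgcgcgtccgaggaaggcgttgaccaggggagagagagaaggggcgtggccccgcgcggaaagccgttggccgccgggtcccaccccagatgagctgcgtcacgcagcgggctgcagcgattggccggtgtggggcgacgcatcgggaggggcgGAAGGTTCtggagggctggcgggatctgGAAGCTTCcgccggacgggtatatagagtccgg
Hspb1, chr12:26432252-26432551, minus strand: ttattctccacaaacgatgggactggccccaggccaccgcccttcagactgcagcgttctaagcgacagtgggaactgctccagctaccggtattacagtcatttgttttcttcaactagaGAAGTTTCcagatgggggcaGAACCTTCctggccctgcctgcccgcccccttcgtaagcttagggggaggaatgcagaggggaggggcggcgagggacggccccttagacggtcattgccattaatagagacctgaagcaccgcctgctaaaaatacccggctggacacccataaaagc
Hspd1 and Hspe1 are neighbours read in opposite directions on chromosome 9, and their windows share 211 bases. The same element stands in the Hspd1 promoter, chr9:64083988-64084287 on the minus strand, as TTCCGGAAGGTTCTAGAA.

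The 14 members with a pair of units were Dnaja1, Dnajb1, Dnajb6, Dnajc18, Dnajc27, Hspa2, Hspa4l, Hspa9, Hspb1, Hspb6, Hspb8, Hspd1, Hspe1 and Hsph1. Among the 12 of them that were tested, limma passed 0 and an unadjusted p under 0.05 was found for 2, with 6 changes above 0, 6 below and a median of 0.0060. Of the 28 tested members whose promoter held no pair, 0 passed and 2 had an unadjusted p under 0.05, with 10 changes above 0, 18 below and a median of −0.06. Over all tested probe sets 0.825% passed and 12.5% had an unadjusted p under 0.05. No test compared the members with and without a pair. Hspa1a, the stress-inducible HSP70, and Hsp90ab1 were among the members without a pair in the window. A match in these windows is a description of the letters, and its absence does not mark a gene as outside the control of these factors.

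Of the HSP70 genes, 4 of 8 were tested and none passed. Hspa1a encodes the stress-inducible HSP70 and is nearly identical to Hspa1b, so its probe set may detect both. It had 5.95, 5.95, 6.14 and 5.79 in hydrogen water, against 5.14, 6.65, 6.70 and 6.23 in controls. The control arrays lay on both sides of the hydrogen water arrays, with control array 1 lowest. Its within-group SD of 0.52 was the largest of the 50 members. The difference was −0.23 ± 0.29 (SE; limma adjusted p = 0.826), and −0.58 without control array 1 (adjusted p = 0.170). Without control array 2 or 3 it was −0.07 and −0.06.

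Hspa9, the mitochondrial HSP70 mortalin, stood at the other end with the smallest within-group SD, 0.05. Its signals were 10.60, 10.63, 10.60 and 10.60 in hydrogen water and 10.56, 10.53, 10.68 and 10.59 in controls. The difference of 0.02 ± 0.06 (SE) had an interval of 0.92-fold to 1.11-fold. At a further probe set of Hspa9 the groups did not overlap after normalization, with a difference of 0.10 ± 0.07 (SE; limma adjusted p = 0.633). In the deposited values they overlapped, at 563.1 to 739.6 in hydrogen water and 592.2 to 870.5 in controls. Dimmer probe sets of Hspa9 differed by 0.0010 ± 0.25 and −0.24 ± 0.29. Hspa13, a microsomal HSP70 relative, differed by 0.17 ± 0.11, and Hspa14, which works at the ribosome, by −0.17 ± 0.17 (SE).

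The HSP110 proteins, which release nucleotide from HSP70, had lower means in hydrogen water at all 3 genes, and none passed. Hspa4l had 4.12, 4.52, 4.84 and 4.29 in hydrogen water and 5.35, 5.37, 4.95 and 4.66 in controls. Only hydrogen water array 3 lay above the lowest control array. The difference of −0.64 ± 0.24 (SE) was 0.64-fold with an interval of 0.45 to 0.92 (limma adjusted p = 0.281), at a signal close to the lowest tested. Hspa4 had 7.22, 6.87, 6.93 and 7.39 in hydrogen water and 7.13, 7.48, 7.41 and 7.37 in controls, a difference of −0.25 ± 0.14 (SE). Hsph1 had 9.93, 9.94, 9.61 and 9.95 in hydrogen water, against 9.97, 10.24, 10.06 and 9.85 in controls. The groups overlapped at both genes. Hsph1 differed by −0.17 ± 0.11 (SE; limma adjusted p = 0.580) and by −0.20 ± 0.13 at its second probe set. The 3 signs were negative under each of 5 other scalings of the arrays.

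Hspbp1, an exchange factor of HSP70, and Hspbap1, a protein that binds HSPB1, entered through their symbols and differed by −0.13 each (SE 0.12 and 0.19).

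HSP90 was represented by Hsp90ab1, the constitutive cytosolic form. Its signals were 11.81, 11.83, 11.64 and 11.85 in hydrogen water and 11.91, 12.11, 11.81 and 11.82 in controls. The groups overlapped, with control array 2 highest and hydrogen water array 3 lowest. The difference was −0.12 ± 0.08 (SE), with an interval of 0.81-fold to 1.03-fold (limma adjusted p = 0.588). The second probe set differed by −0.23 ± 0.10 and did not pass either (adjusted p = 0.357). With the arrays centred on the spike-ins the sign of the first turned, to 0.0079.

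The mitochondrial chaperonin genes were among the members with the tightest intervals. Hspd1 had 11.74, 11.68, 11.77 and 11.85 in hydrogen water, against 11.72, 11.83, 11.82 and 11.62 in controls. Hspe1 had 11.65, 11.50, 11.57 and 11.76 in hydrogen water, against 11.45, 11.65, 11.72 and 11.47 in controls. The groups overlapped throughout. The differences were 0.01 ± 0.07 for Hspd1 and 0.05 ± 0.08 for Hspe1 (SE), with intervals of 0.91-fold to 1.12-fold and 0.91-fold to 1.17-fold. Their signs turned negative without normalization.

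Small heat shock proteins were tested at 3 of 7 genes and none passed. Hspb1, the inducible HSP27, had 7.72, 8.03, 7.67 and 8.68 in hydrogen water and 7.67, 8.21, 7.33 and 7.63 in controls. Hydrogen water array 4 and control array 2 were high, and the difference of 0.32 ± 0.23 (SE) had a wide interval of 0.87-fold to 1.78-fold. Without hydrogen water array 4 it was 0.10. Hspb6, known as HSP20, had 5.55, 5.68, 6.52 and 5.76 in hydrogen water and 5.60, 5.44, 5.72 and 5.71 in controls. Hydrogen water array 3 alone lay apart, and the difference was 0.26 ± 0.20 (SE), or 0.05 without that array. Hspb8, which works with the co-chaperone BAG3 in the removal of aggregates, differed by −0.02 ± 0.11.

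The DNAJA genes encode the general co-chaperones of HSP70, and 0 of the 4 passed. Dnaja1 had 11.15, 11.21, 11.17 and 11.26 in hydrogen water and 11.11, 11.23, 11.22 and 11.23 in controls. The difference of −0.0013 ± 0.059 (SE) gave an interval of 0.91-fold to 1.09-fold. Dnaja2 had 10.21, 10.11, 9.93 and 10.28 in hydrogen water and 9.85, 10.63, 9.85 and 10.12 in controls. Control array 2 lay above all others, and the difference was 0.02 ± 0.16. Dnaja3, the mitochondrial form also called TID1, had 9.55, 9.46, 9.19 and 8.91 in hydrogen water and 8.81, 8.80, 9.05 and 9.01 in controls. All hydrogen water arrays but array 4 lay above the controls. Its difference of 0.36 ± 0.14 (SE), 1.28-fold with an interval of 1.04 to 1.58, did not pass (limma adjusted p = 0.299). Dnaja4 differed by −0.10 ± 0.16, and by −0.45 ± 0.20 at its second probe set (adjusted p = 0.385).

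The 8 tested DNAJB genes all had a lower mean in hydrogen water, between −0.03 and −0.26, and none passed in limma or had an unadjusted p under 0.05. Centred on the spike-ins, 3 of the 8 were above 0. Dnajb1, the main inducible partner of HSP70, had 8.51, 8.76, 8.31 and 8.56 in hydrogen water and 8.22, 8.81, 8.65 and 8.84 in controls. The groups overlapped, with control array 1 lowest, and the difference was −0.09 ± 0.15 (SE). Its second probe set differed by −0.20 ± 0.15. Dnajb2, which carries ubiquitin-binding motifs and is best known from neurons, had 8.28, 8.04, 8.07 and 8.41 in hydrogen water and 8.28, 8.64, 8.59 and 8.30 in controls. It differed by −0.26 ± 0.12 (SE; limma adjusted p = 0.433). Dnajb4 had 7.49, 7.66, 8.06 and 7.92 in hydrogen water and 7.15, 7.80, 8.25 and 8.06 in controls, a range wider within the controls than between the groups. Its difference was −0.04 ± 0.22. Dnajb6, a suppressor of aggregation, differed by −0.05 ± 0.09, and Dnajb11, a DNAJ protein of the endoplasmic reticulum, by −0.03 ± 0.11.

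**Figure D4:**
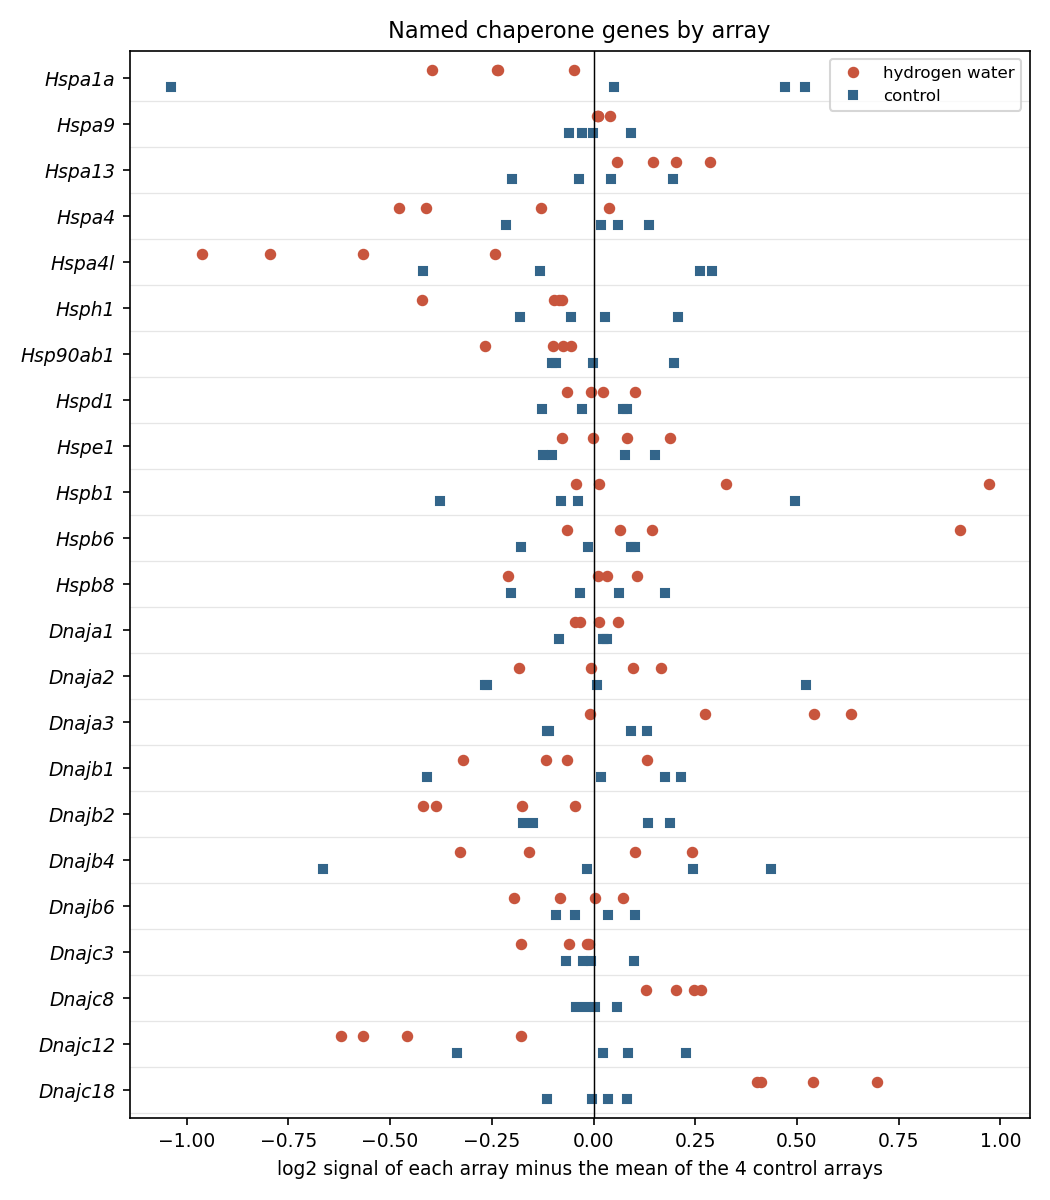
Log2 signal of each array minus the mean of the 4 control arrays for 23 named members, hydrogen water as circles above and control as squares below in each row. On these normalized signals the groups do not overlap at Dnajc8 and Dnajc18. At Hspa1a the control arrays lie on both sides of the hydrogen water arrays. Before the subtraction the Hspa1a control arrays run from 5.14 to 6.70.

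The DNAJC genes share the J domain alone and serve many compartments, and 0 of the 21 tested passed. Dnajc12 is known in humans as the co-chaperone of phenylalanine hydroxylase, a liver enzyme. It had 8.12, 8.51, 8.07 and 8.23 in hydrogen water and 8.92, 8.78, 8.71 and 8.36 in controls. Hydrogen water array 2 alone lay above the lowest control array. The difference of −0.46 ± 0.14 (SE) was 0.73-fold with an interval of 0.59 to 0.90 (limma adjusted p = 0.181). Dnajc18, a membrane protein of the endoplasmic reticulum, had 5.29, 5.16, 5.45 and 5.17 in hydrogen water and 4.84, 4.79, 4.75 and 4.64 in controls. The groups did not overlap after normalization, while in the deposited values control array 1, at 34.4, lay above every hydrogen water array. The difference of 0.51 ± 0.16 (SE) was 1.43-fold with an interval of 1.12 to 1.82 (limma adjusted p = 0.195). Its mean deposited value was 29.9, and members too dim to be tested reached up to 30.6 on an array. Dnajc8, a protein of the spliceosome, had 7.92, 7.78, 7.86 and 7.90 in hydrogen water and 7.66, 7.61, 7.63 and 7.71 in controls. After normalization these groups did not overlap either, within a difference of only 0.21 ± 0.09 (limma adjusted p = 0.353).

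The remaining 18 DNAJC genes differed by −0.15 to 0.16. Among those of the endoplasmic reticulum, Dnajc3, the inhibitor P58IPK, differed by −0.07 ± 0.07, the disulfide reductase Dnajc10 by −0.12 ± 0.11 and Dnajc1 by 0.02 ± 0.09 (SE). Dnajc19 and Dnajc15, parts of the mitochondrial import motor, each differed by −0.05 (SE 0.09 and 0.10). Dnajc5, the cysteine string protein, differed by 0.13 ± 0.10, the endosomal Dnajc13 by 0.000067 ± 0.094 and the ribosome-associated Dnajc2 by −0.03 ± 0.11.

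Among further probe sets of the tested members, 19 were tested for 15 genes and 0 passed in limma. An unadjusted p under 0.05 was found for 5 of the 19, beside 12.5% of all tested probe sets. The 5 were both of Hsf2, with higher means in hydrogen water, and those of Dnaja4, Dnajc11 and Hsp90ab1, with lower means. The further probe sets had the sign of the probe set used in 13 of the 19. The other 6 belonged to Dnajb5, Dnajc1, Dnajc5, Dnajc10, Dnajc11 and Hspa9. Dnajc11, for example, differed by 0.02 at the probe set used and by −0.44 ± 0.19 (SE) at the further one.

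Within each group, the same array was often the highest across members. Control array 2 was the highest of its group at 22 of 50 members, 44.0%, against 27.1% of all tested probe sets. Hydrogen water array 4 was likewise the highest of its group at 22, 44.0%, against 22.6%. Hsph1, Hspa4, Hsp90ab1, Hspb1, Hspd1 and Dnaja2 were among the members highest on both. Hydrogen water array 2 was the lowest of its group at 20 members, 40%, against 24.8% of all, and hydrogen water array 3 at 18, 36%, against 28.4%. Control array 1 was lowest at 17 members, 34%, against 26.7%, and Hspa1a, Dnajb1 and Dnajb4 were among them. The median deviation of the members from their group's mean was small, 0.05 on hydrogen water array 4 and 0.08 on control array 2. These counts are a description without a test, since the members share the arrays.

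**Figure D5:**
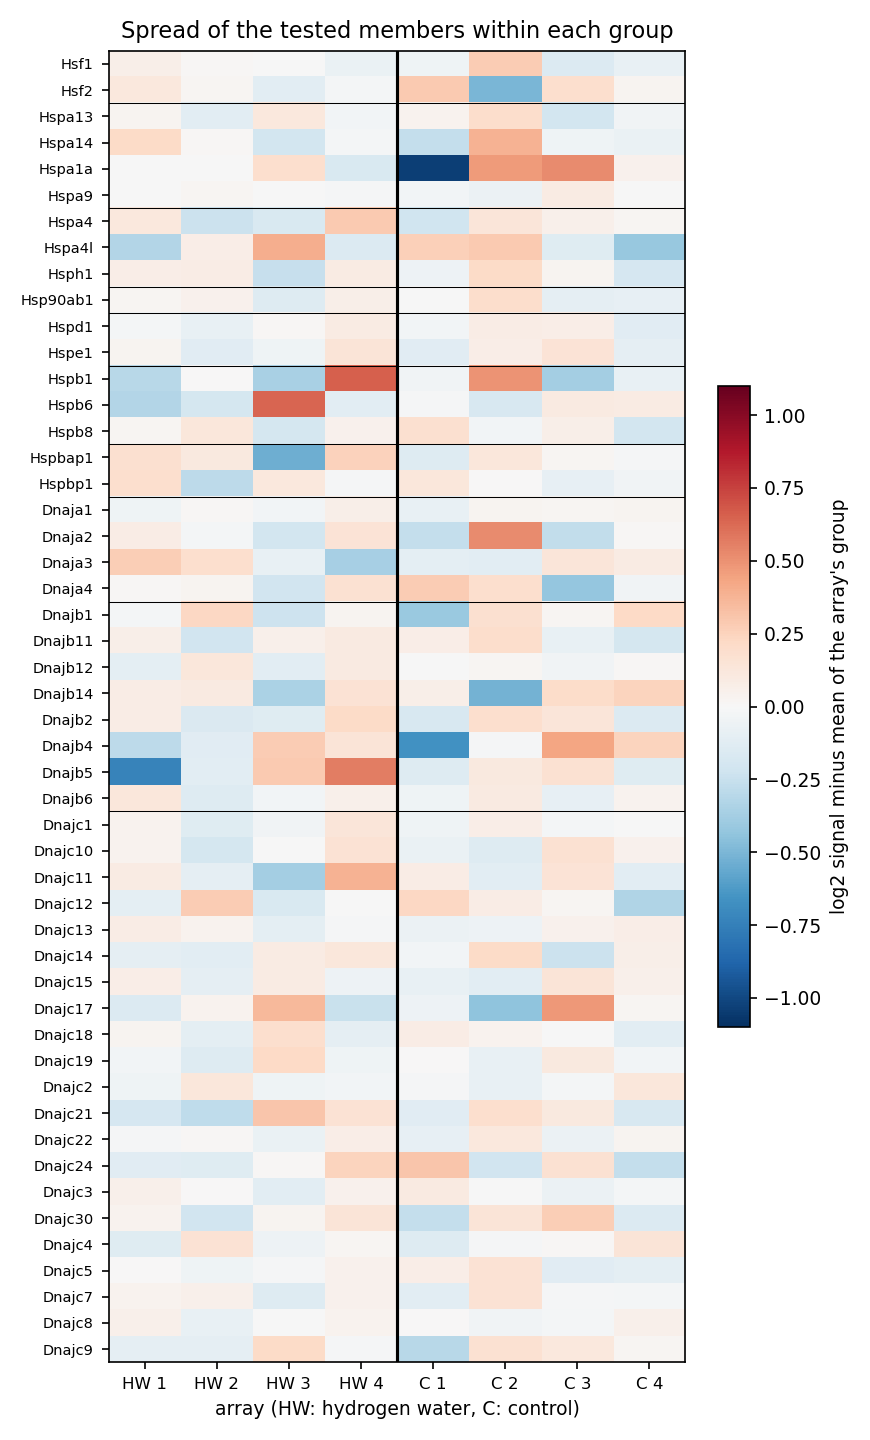
Log2 signal of each of the 50 tested members on each array minus the mean of that array's group, hydrogen water (HW) left and control (C) right, with families separated by lines. Control array 2 and hydrogen water array 4 are each the highest of their group at 22 members, and the darkest cell is Hspa1a on control array 1.

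Genes that work with these chaperones were read from a list of 47, of which 46 were on the array under a single symbol and all 46 were tested. Fkbp5 and Cdc37l1, both co-chaperones of HSP90, rose with hydrogen water, 0 fell and 44 did not pass, where 0.825% of all tested probe sets passed. The list was chosen with earlier results of these data known, so the count of partners that passed is a description only. Cdc37l1, a relative of the kinase co-chaperone CDC37, had 7.82, 7.29, 7.56 and 7.49 in hydrogen water and 6.93, 6.90, 6.94 and 6.95 in controls. After normalization the groups did not overlap, and the control arrays lay within a narrow band. In the deposited values the controls ran from 108 to 155 and overlapped hydrogen water, which ran from 145 to 176. The difference of 0.61 ± 0.12 (SE) was 1.52-fold with an interval of 1.27 to 1.83 (limma adjusted p = 0.0483). When 1 of the 8 arrays was omitted, Cdc37l1 passed only in the fit lacking hydrogen water array 2. It also missed the threshold without normalization, with median centring or trimmed mean scaling, with no filter, no trend, the replicate block, gene means or the brightness covariate. A second, dim probe set of it differed by 0.65 ± 0.22 (adjusted p = 0.241). Fkbp5 had 9.72, 8.82, 9.90 and 9.29 in hydrogen water, against 6.18, 6.94, 7.55 and 6.16 in controls. The difference of 2.73 ± 0.32 (SE) was 6.63-fold (limma adjusted p = 0.00543), and the second probe set differed by 2.28 ± 0.33 (adjusted p = 0.012). Fkbp5 still passed whichever of the 8 arrays was omitted, and missed the threshold with array brightness as a covariate.

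The other partners sat close to 0, with a median over the 46 of −0.06 and 31 of them below 0. With spike-in centring 28 were above 0. Cct8, a subunit of the cytosolic chaperonin TRiC, had 8.93, 8.81, 8.40 and 8.69 in hydrogen water and 9.01, 8.81, 9.13 and 9.08 in controls, a difference of −0.30 ± 0.12 (SE; limma adjusted p = 0.335). The other 7 TRiC subunits differed by −0.12 to 0.04. Stip1, which hands clients from HSP70 to HSP90, had 8.95, 8.82, 8.46 and 8.85 in hydrogen water and 8.96, 9.30, 8.92 and 8.93 in controls. It differed by −0.26 ± 0.13 (SE) and did not pass (limma adjusted p = 0.438). Ppid, a cyclophilin of HSP90 complexes, differed by −0.21 ± 0.11 and the HSP70 exchange factor Bag2 by −0.34 ± 0.17 (SE). None of the 13 exchange factors and HSP70 partners, 8 TRiC subunits, 5 prefoldin subunits or 6 mitochondrial and other chaperones passed in limma. Hydrogen water array 3 was the lowest of its group at 25 of the 46 partners, 54.3%, against 28.4% of all tested probe sets.

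Array brightness and a sign of RNA quality were compared between the groups. The 2% trimmed mean of the deposited signal was 91.5 ± 10.4 in hydrogen water and 115 ± 18.7 in controls (SD, n = 4 each), and an exact two-sided permutation test gave p = 0.114. For Gapdh the log2 ratio of 3′ to 5′ signal, which reads RNA integrity, was 0.38 ± 0.08 in hydrogen water and 0.22 ± 0.10 in controls (SD, n = 4 each), with p = 0.0571 in the same exact permutation test. With array brightness as a covariate, Hsf2 differed by 0.87 (adjusted p = 0.108) and Dnajc12 by −0.29 (0.644). The part of RNA integrity in these values was not tested. All 10 hepatocyte markers, among them Alb, Ttr and Apoa1, were tested, and limma passed 0 with 0 at an unadjusted p under 0.05. They had summed signals of 71889 to 74400 in hydrogen water and 69616 to 73594 in controls. Markers of skeletal muscle, where small heat shock proteins are known to be rich, all lay below the filter at 5 of 5. Of the other lists, markers of macrophages, endothelial cells, stellate cells, cholangiocytes, lymphocytes, neutrophils, red cells and pancreas, limma passed 0 genes. An unadjusted p under 0.05 was found only for 2 of the 5 endothelial markers tested, beside 12.5% of all tested probe sets. The endothelial markers had summed signals of 2121 to 2410 in hydrogen water and 1912 to 2267 in controls. Those of red cells had 3554 to 5544 in hydrogen water and 2816 to 4264 in controls. Cholangiocyte markers, of which 2 of 4 were tested, had 102 to 148 in hydrogen water and 139 to 207 in controls. The ranges of the groups overlapped for every list.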

How the data were processed

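Liver RNA was labelled as biotinylated cRNA for 8 Affymetrix arrays, 4 of hydrogen water and 4 of controls (per the labels' protocols). The deposited values are intensities on a linear scale and come from the authors' MAS5 runs, as named in the submitters' processing notes. That program subtracts background and combines the probes of a probe set. Its scaling target is not given in the sources used here, detection calls were not used, and the number of arrays limits the precision.

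The deposited array medians ran from 17.2 to 26.8, so the 31042 probe sets other than 57 controls were quantile-normalized, and log2 was taken after adding 2.05 (10% of the median of all values). This hides any common shift of all transcripts, and fold changes of dim probe sets are understated. The 15521 probe sets at or above the median mean signal were fitted in limma 3.58.1 (R 4.3.3; lmFit, then eBayes with an intensity trend), with Benjamini-Hochberg adjustment over all of them. Gene names came from the platform annotation, in which 20826 probe sets hold 1 symbol, 436 several and 9780 have no name here. By Entrez ID, 20758 probe sets matched the GRCr8 RefSeq table with 0 changed symbols. Permutation tests over 70 arrangements (scipy 1.17.1) have a smallest p of 0.0286.

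The members, the partner and marker lists and the tests were chosen with earlier results of these data known. The rule for named members took those past the threshold, the 12 with the smallest p, those without overlap between groups, and a list of well-known chaperones. Dnaja4, Hspa14 and the further DNAJB, DNAJC and partner genes given with values lie outside it, and their choice followed a look at their values. Alternatives covered 5 scalings, the pseudocount, the filter, the prior, array weights, a replicate block, a brightness covariate, the choice of probe set, the threshold and leaving out each array. The fit was tested on simulated data. The main fit did not treat replicate numbers shared by the groups as pairs.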

Additional observations from a re-analysis of the deposited data

Results flagged for a closer look

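Single arrays stood far from the other 3 of their group at 3 of 50 groups of named members checked, where chance alone would flag about 1 in 20. Hsph1 was at 9.61 on hydrogen water array 3, with the others of that group between 9.93 and 9.95, and without this array its change was −0.09 in place of −0.17. Hspa9 was at 10.63 on hydrogen water array 2, with the others at 10.60. Dnaja1 was at 11.11 on control array 1, with the others between 11.22 and 11.23. The gaps at Hspa9 and Dnaja1 are small on the log2 scale.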

How the results depend on the processing

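No member passed in any of 24 alternatives, whose lowest adjusted p for a named member was 0.0507 (Dnajc12, without normalization). Of the 25 named members tested, 11 kept their sign in every refit that gave them a value (20 to 22 refits a gene) and 14 changed it in 1 or more. Without normalization the median of all tested probe sets moved to −0.33 and that of the members to −0.37, and Dnajc8 (−0.14), Hspa13 (−0.17), Hspe1 (−0.22), Hspa9 (−0.26) and Hspd1 (−0.23) lay on the other side of 0, outside their intervals in the normalized arrays. Under median centring the members' median was −0.11. The count of all probe sets was 505 with unnormalized arrays, 64 when the prior had no trend, 12 with the brightness covariate and 353 at an adjusted p of 0.10, and ran from 56 to 196 when 1 array was left out. Omitting control array 2, 3 or 4 gave 59, 196 or 58, and omitting hydrogen water array 1, 3 or 4 gave 61, 56 or 71. Of the called probe sets 53.9% were higher with hydrogen water, against 4.16% without normalization, 29.4% with median centring and 70.8% with spike-in centring. The count of partner genes was 1, with Cdc37l1 lost, without normalization, with median centring, trimmed mean scaling, no filter, no trend, the replicate block or gene means, 0 with the brightness covariate, and 1 to 2 when 1 array was left out. The causes were not tested.

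Arrays of the same replicate number correlated at −0.10, 0.04, 0.19 and −0.0029 in their deviations, and 1 of the 4 correlated best with its own number. So few correlations cannot decide whether the numbers pair the arrays. The replicate block left 0 members past the threshold (lowest adjusted p = 0.0986), 1 partner gene, and 181 probe sets in place of 128. MAS5 signals without detection calls limit what can be said of the 13 dim members.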
